A study of Mus musculus with 8 samples.

Results

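A group of 8 podocyte genes was followed in whole-kidney RNA: Nphs1, Kirrel, Cd2ap, Plce1, Synpo, Podxl, Ptpro and Wt1. They are the rows of the deposited gene table that carry these symbols, 8 of 30587 identifiers, and each symbol stood on its own identifier. All 8 passed the filter on low counts that left 18048 genes for testing. Of these 8 genes, Ptpro was lower in the knockout kidneys and the other 7 did not pass the test.

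The study compared kidneys of WT C57BL/6 mice (WT 1 to 4) with kidneys of Tsc1f/f/Aqp2 Cre mice (Tsc1-KO 5 to 8), all 28 days old. The series' design text calls the knockouts C57BL/6 too, while their sample labels give the alleles alone. In the knockout, a Cre recombinase under Aqp2 control deletes Tsc1, which encodes the mTORC1 inhibitor hamartin, in principal cells of the collecting duct. Podocytes are therefore not the cells that the Cre targets. Whether the groups share the rest of their genome was not tested. For Ptpro as for every other gene, an inherited difference between the lines cannot be told apart from an effect of losing Tsc1. Nothing in the labels ties a library to its own mouse. The p-values below therefore reflect library-to-library spread, part of which may be technical.

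Podocytes are the epithelial cells that wrap the capillaries of the glomerulus. Their interdigitating foot processes are joined by the slit diaphragm, a cell junction built around nephrin that forms part of the filtration barrier. The 8 genes cover the diaphragm itself, the adaptors and signaling enzymes below it, the actin scaffold, the apical membrane of the foot process and the transcription program of the cell. In bulk kidney RNA, fewer podocytes cannot be told apart from less RNA per podocyte.

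The libraries held between 26453073 and 31226739 counts. Tsc1, the targeted gene, had a log2 change of -0.05 (SE 0.18, edgeR adjusted p = 0.933) in whole kidney, so its level does not check the genotype labels. WT 3, WT 4, Tsc1-KO 7 and Tsc1-KO 8 held 3945 to 6001 reads from 4 genes of the Y chromosome, against 0 to 8 in the remaining libraries, and each genotype had libraries of both kinds. By the edgeR quasi-likelihood test at a Benjamini-Hochberg adjusted p under 0.05, 4.67% of the tested genes differed between the genotypes (3.5% higher and 1.16% lower in Tsc1-KO). The lowest value of one genotype lay above the highest of the other in 11.5% of tested genes.

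Ptpro encodes the receptor-type tyrosine phosphatase GLEPP1 of the apical foot process membrane (ENSMUSG00000030223, chromosome 6, 137252319 to 137463233, plus strand, as in GRCm38). Its level in CPM (the count divided by the TMM-scaled library total, on the usual CPM scale) was 22.8, 24.9, 19.4 and 26.3 in WT 1 to 4 and 7.75, 4.65, 6.91 and 10.2 in Tsc1-KO 5 to 8. The highest Tsc1-KO library, Tsc1-KO 8, lay far below the lowest WT library, WT 3, and the groups did not overlap. The WT mean was 23.4 ± 3.02 CPM (SD, n = 4). The Tsc1-KO mean was 7.39 ± 2.31 CPM (SD, n = 4), which was 3.16-fold lower. On the log2 scale Ptpro fell by 1.66 (SE 0.21, 95% interval -2.13 to -1.19, edgeR adjusted p = 0.00141). Behind these values stood 524 to 707 counts per WT library and 140 to 322 per Tsc1-KO library. Ranked by the size of the log2 change, Ptpro was number 27 of the 182 protein-coding genes that were lower. How much of the Ptpro RNA came from podocytes was not measured.

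The call on Ptpro held in each of the 8 fits that left out 1 library, with log2 changes from -1.86 to -1.49 and edgeR adjusted p of 0.000873 to 0.00655. A fit of the 4 libraries with Y-linked reads gave -1.41 with an edgeR adjusted p of 0.105, which ended the call. Within the 4 libraries without them it was -1.97 (edgeR adjusted p = 0.0071). The difference between these changes was 0.53 (SE 0.40, edgeR unadjusted p = 0.218, adjusted p = 0.9999), so the size of the change was not shown to differ with Y-linked reads.

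**Figure D1:**
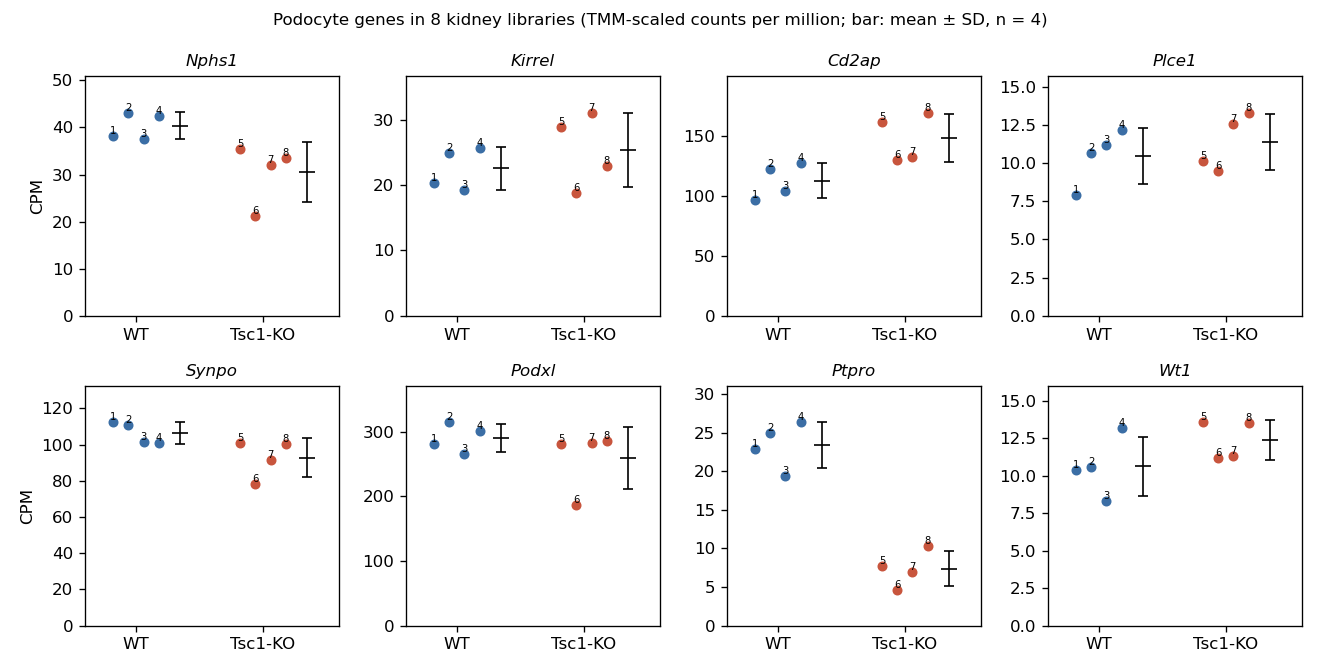
Level of each of the 8 genes in CPM (vertical axes, each starting at 0) in the WT (blue) and Tsc1-KO (red) libraries, numbered as in the labels, with the mean and SD beside them. Ptpro is at 19.4 to 26.3 CPM in WT and 4.65 to 10.2 CPM in Tsc1-KO, and Tsc1-KO 6 is the lowest Tsc1-KO library in all 8 panels.

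The sequence around the start of Ptpro, the gene of the group that fell, is shown beside that of Nphs1, the gene against which it is compared per library. WT1, the transcription factor that maintains podocyte identity, recognizes a GC-rich motif whose core, GTGGGAG, was searched on both strands of the RefSeq promoters (GRCm38.p6, 250 bases before to 50 after the start) and is in capitals. The windows are chr6:137252049-137252348 and chr7:30459808-30460107, both plus strand.
Ptpro: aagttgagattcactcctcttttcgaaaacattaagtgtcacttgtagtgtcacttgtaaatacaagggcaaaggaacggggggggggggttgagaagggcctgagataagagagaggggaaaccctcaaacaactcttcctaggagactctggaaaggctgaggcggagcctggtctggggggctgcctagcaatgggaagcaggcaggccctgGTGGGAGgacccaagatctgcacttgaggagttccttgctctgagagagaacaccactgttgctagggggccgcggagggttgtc
Nphs1: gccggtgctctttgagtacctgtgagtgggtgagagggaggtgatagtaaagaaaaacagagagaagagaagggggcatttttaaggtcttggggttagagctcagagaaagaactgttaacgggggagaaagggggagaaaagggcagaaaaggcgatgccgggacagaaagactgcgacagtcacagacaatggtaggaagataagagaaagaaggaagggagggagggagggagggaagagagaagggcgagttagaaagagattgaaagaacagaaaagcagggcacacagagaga
In the Ptpro window the motif begins 35 bases before the start. The Nphs1 window does not hold these letters. It lies inside the annotated gene, which begins at 30458315, so it shows a RefSeq start and not the annotated gene start. Of the 5 genes of the group with a window in the table (Nphs1, Kirrel, Cd2ap, Plce1 and Ptpro), Ptpro and Cd2ap held the motif, and so did 9.73% of all 32851 windows. A match of 7 letters is a description of the sequence and not evidence of binding.

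Nphs1 encodes nephrin, the immunoglobulin-type adhesion protein that spans the slit (ENSMUSG00000006649, chromosome 7, 30458315 to 30487223, plus strand). Its level was 38.3, 43.1, 37.6 and 42.5 CPM in WT 1 to 4 and 35.4, 21.3, 32.1 and 33.5 CPM in Tsc1-KO 5 to 8. All Tsc1-KO libraries lay below all WT libraries, 3 of them narrowly and Tsc1-KO 6 by a wide margin. The log2 change was -0.40 (SE 0.15, 95% interval -0.73 to -0.07), which did not pass after adjustment (edgeR adjusted p = 0.186). Without Tsc1-KO 6 it was -0.26 (edgeR adjusted p = 0.254).

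Kirrel encodes NEPH1, which binds nephrin across the slit (ENSMUSG00000041734, chromosome 3, 87078593 to 87174747, minus strand). It measured 20.3, 24.9, 19.2 and 25.7 CPM in WT 1 to 4 and 28.8, 18.7, 31.1 and 22.8 CPM in Tsc1-KO 5 to 8. The groups overlapped, with Tsc1-KO 6 below every WT library and Tsc1-KO 5 and 7 above them. The log2 change was 0.17 (95% interval -0.20 to 0.54, edgeR adjusted p = 0.683).

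Cd2ap encodes an adaptor that ties nephrin to the actin cytoskeleton and is also made by other kidney cells (ENSMUSG00000061665, chromosome 17, 42792951 to 42876665, minus strand). Its level was 96.8, 122, 104 and 128 CPM in WT 1 to 4 and 162, 130, 132 and 169 CPM in Tsc1-KO 5 to 8. The direction was opposite to that of Ptpro: the lowest Tsc1-KO value, in Tsc1-KO 6, was just above the highest WT value, in WT 4, so the groups did not overlap. The log2 change was 0.40 (95% interval 0.11 to 0.68, edgeR adjusted p = 0.127), which missed the threshold.

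Plce1 encodes phospholipase C epsilon, a signaling enzyme whose loss causes nephrotic syndrome in humans (ENSMUSG00000024998, chromosome 19, 38481109 to 38785030, plus strand). It measured 7.90, 10.7, 11.2 and 12.1 CPM in WT 1 to 4 and 10.1, 9.50, 12.5 and 13.3 CPM in Tsc1-KO 5 to 8. The groups overlapped over most of their range, and the log2 change of 0.12 (95% interval -0.27 to 0.50, edgeR adjusted p = 0.806) came to -0.0024 without WT 1, the lowest WT library.

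Synpo encodes synaptopodin, an actin-associated protein of the foot process (ENSMUSG00000043079, chromosome 18, 60593973 to 60660142, minus strand). Its level was 112, 111, 102 and 101 CPM in WT 1 to 4 and 101, 78.1, 91.5 and 100.5 CPM in Tsc1-KO 5 to 8. The groups met at 100.9 CPM, where WT 4 stood just above Tsc1-KO 5, so that they did not overlap by less than the rounding. The log2 change was -0.20 (95% interval -0.43 to 0.04, edgeR adjusted p = 0.392).

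Podxl encodes podocalyxin, the sialylated protein that keeps foot processes apart and is also present on endothelium (ENSMUSG00000025608, chromosome 6, 31519488 to 31563981, minus strand). It measured 281, 315, 265 and 302 CPM in WT 1 to 4 and 281, 187, 283 and 286 CPM in Tsc1-KO 5 to 8. Of the Tsc1-KO libraries, 3 lay inside the WT range and Tsc1-KO 6 far below it. The log2 change was -0.16 (95% interval -0.48 to 0.15, edgeR adjusted p = 0.625) and -0.04 without Tsc1-KO 6.

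Wt1 encodes the zinc finger transcription factor of the podocyte program (ENSMUSG00000016458, chromosome 2, 105126529 to 105173616, plus strand). Its level was 10.4, 10.5, 8.33 and 13.2 CPM in WT 1 to 4 and 13.6, 11.2, 11.3 and 13.5 CPM in Tsc1-KO 5 to 8. WT 4 lay within the Tsc1-KO range and the other WT libraries below it. The log2 change was 0.22 (95% interval -0.13 to 0.58, edgeR adjusted p = 0.544).

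Of the 8 genes, 1 was lower and 0 higher at an adjusted p under 0.05, where 1.16% of all tested genes were lower. The median log2 change over the 8 was -0.02, with 4 above 0 and 4 below, and over all tested genes it was 0.0049. The intervals of the 7 others allow changes of up to -0.73 (Nphs1) and 0.68 (Cd2ap) on the log2 scale, none of which reaches the interval of Ptpro. The genotypes did not overlap for 4 of the 8, against 11.5% of all tested genes: Ptpro, Nphs1 and Synpo were below WT and Cd2ap above it.

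Levels of different genes were compared per length, in FPKM (fragments scaled by gene length and library total). In WT the order of mean FPKM was Podxl (53.0), Synpo (11.2), Cd2ap (7.10), Nphs1 (6.10), Ptpro (3.48), Kirrel (3.02), Wt1 (1.71) and Plce1 (0.655). The WT ranges of Cd2ap and Nphs1 overlapped, as did those of Ptpro and Kirrel, and the other neighbours in this order did not. In Tsc1-KO the mean of Ptpro was 1.08 FPKM (0.690 to 1.51 over the libraries), which put it in place 7, below Kirrel and Wt1. There its range overlapped that of Plce1 (0.593 to 0.822 FPKM) and lay below that of Wt1 (1.80 to 2.15 FPKM).

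Set against another podocyte gene in the same library, a level no longer depends on how libraries are scaled. The ratio of Ptpro to Nphs1 counts was 0.597, 0.577, 0.516 and 0.620 in WT 1 to 4 and 0.219, 0.219, 0.215 and 0.306 in Tsc1-KO 5 to 8. Tsc1-KO 5, 6 and 7 were nearly equal although Tsc1-KO 6 held the lowest level of both genes, and Tsc1-KO 8 was higher. The mean log2 ratio was -0.80 ± 0.11 (SD, n = 4) in WT and -2.08 ± 0.25 (SD, n = 4) in Tsc1-KO, a difference of -1.28 (two-sided exact permutation test over the 8 libraries, p = 0.0286, the smallest it can give).

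The same held against each other reference gene, given as values with no test. The difference in log2 ratio was -1.50 for Synpo, -1.52 for Podxl, -1.83 for Plce1, -1.86 for Kirrel, -1.94 for Wt1 and -2.10 for Cd2ap. In none of the 7 comparisons did the libraries of the genotypes overlap, and the smallest gap between them was 0.75 on the log2 scale (Nphs1). All these ratios, the tested one included, share the Ptpro counts. They set the size of its fall against each gene and are not further evidence for the fall. Against the summed counts of the 7 other genes the difference was -1.66, a 3.17-fold lower ratio.

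**Figure D2:**
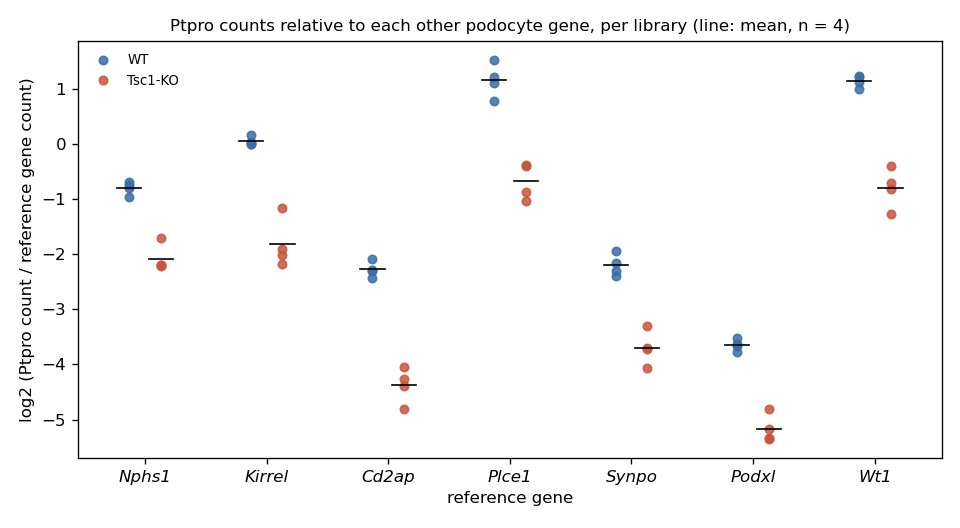
Log2 ratio of Ptpro counts to the counts of each other podocyte gene (vertical axis) for the reference gene named below (horizontal axis), 1 point per library, WT in blue and Tsc1-KO in red, lines at the mean of 4. Every Tsc1-KO point is below every WT point for each of the 7 reference genes, with differences of the means from -1.28 (Nphs1) to -2.10 (Cd2ap).

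Within a genotype, single libraries were low for several of the 8 genes at once. Tsc1-KO 6 was the lowest Tsc1-KO library for all 8, by 0.57 below the genotype mean of log2 CPM for Ptpro, 0.49 for Nphs1 and 0.45 for Podxl, but only by 0.14 for Wt1. WT 3 was the lowest WT library for 5 of them (Nphs1, Kirrel, Podxl, Ptpro and Wt1). Over the 8 libraries, deviations from the genotype mean correlated positively in 28 of 28 gene pairs, with a median Pearson's r of 0.55 and r = 0.98 for Nphs1 and Podxl. For Ptpro the r with the other genes lay between 0.51 and 0.87. These values share library scaling, are given without a test, and rest in part on Tsc1-KO 6: without it 25 of 28 pairs were positive and the median r was 0.39.

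Summed levels of some other lists were also extreme in Tsc1-KO 6. Summed over 5 B cell genes the level was 29.5 CPM there, 10.5 to 13.4 CPM in the other Tsc1-KO libraries and 7.56 to 10.1 CPM in WT, and none of the 5 passed the test. Summed over 6 tubule injury genes it was 4525 CPM in Tsc1-KO 6, 1336 to 3151 CPM in the other Tsc1-KO libraries and 674 to 1808 CPM in WT, and 2 of the 6 were higher (Lcn2 and Timp1), beside 3.5% of all tested genes. The sum of 6 proximal tubule genes was 6072 CPM in Tsc1-KO 6, 7182 to 9517 CPM in the other Tsc1-KO libraries and 11187 to 12014 CPM in WT, and 2 of the 6 were lower (Slc34a1 and Hnf4a), beside 1.16% of all tested genes. Single genes made up much of each sum. In Tsc1-KO 6, Spp1 held 4391 CPM of the tubule injury sum and did not pass the test (edgeR adjusted p = 0.157). Slc34a1 held 3437 CPM of the proximal tubule sum there, and Ighm 19.3 CPM of the B cell sum. Not every list was extreme in Tsc1-KO 6. Its sum of podocyte transcription and cell cycle exit genes was 160.9 CPM, with 160.2 to 185.4 CPM over the Tsc1-KO libraries. The sums of parietal epithelium and principal cell genes in Tsc1-KO 6 also lay inside the Tsc1-KO range. The part of the B cell, tubule injury and proximal tubule differences in the podocyte values was not tested.

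**Figure D3:**
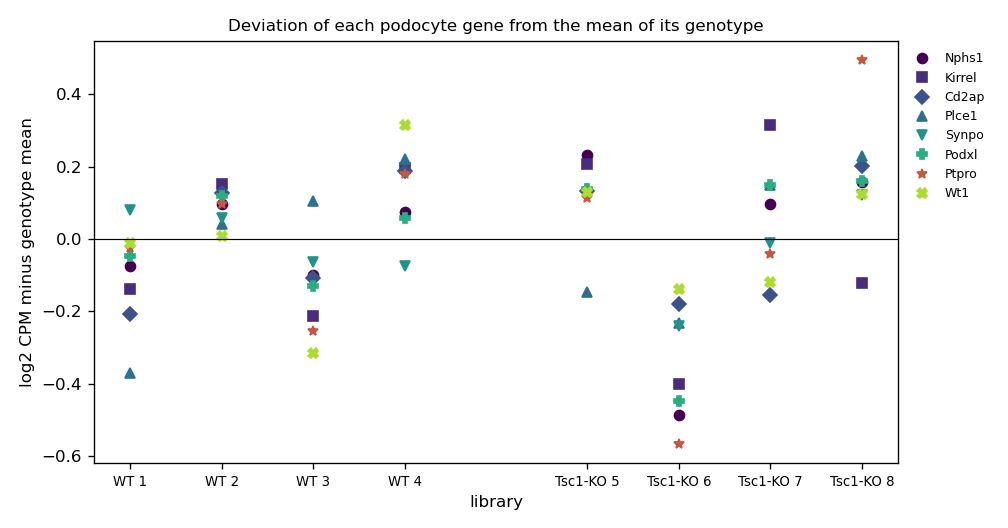
Log2 CPM of each gene minus the mean of its genotype (vertical axis) in each library (horizontal axis), with 1 symbol per gene and Ptpro as red stars. All 8 symbols are below 0 in Tsc1-KO 6, where Ptpro reaches -0.57, while in Tsc1-KO 8 Ptpro is highest, at 0.49.

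The podocyte lists were widened to 53 further genes in 5 functional groups, of which 52 were tested (Kirrel2, with 68 counts in all, was not). These lists were not limited to genes made by podocytes alone. In WT, Tln1 averaged 497 CPM and Actn4 463 CPM, beside 40.4 CPM for Nphs1. How much of their RNA came from podocytes was not measured, so the 52 are not a baseline for podocytes alone. None was called by edgeR at an adjusted p under 0.05, and 9 of the 52 had an unadjusted p under 0.05, beside 17.6% of all tested genes. DESeq2 called 2, Anln and Tln1, where it called 1003 genes higher and 500 lower among all genes. The median log2 change of the 52 was -0.09, with 17 above 0 and 35 below, beside 0.0049 for all tested genes.

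Among the slit diaphragm proteins and adaptors (12 tested), Fyn, the kinase that phosphorylates nephrin, had a log2 change of 0.35 (edgeR adjusted p = 0.173) and Ildr2 one of -0.32 (edgeR adjusted p = 0.468).

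In the foot process cytoskeleton (13 tested), Anln, the actin-binding protein anillin, which also acts in cell division, measured 2.32 to 10.4 CPM in WT and 9.48 to 15.9 CPM in Tsc1-KO (log2 change 1.20, edgeR adjusted p = 0.124). It was the gene that passed under 4 other settings: DESeq2 (adjusted p = 0.0136), Y-linked reads as a term (0.0257), the libraries without Y-linked reads (0.0443) and the fit without WT 4 (0.0335). Tln1, which encodes talin, measured 487 to 512 CPM in WT and 351 to 437 CPM in Tsc1-KO (log2 change -0.31, edgeR adjusted p = 0.127, DESeq2 adjusted p = 0.031). Without Tsc1-KO 8, edgeR called Rhpn1 (-0.57) and, from the surface and secreted group, Sema3g (-0.62). That fit called 368 genes higher and 121 lower among all genes.

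Among transcription and cell cycle exit genes (7 tested), Lmx1b, a LIM homeobox factor of podocytes, had a log2 change of -0.51 (edgeR adjusted p = 0.146), with WT at 5.19 to 7.12 CPM and Tsc1-KO at 3.99 to 4.77 CPM. In the matrix and adhesion group (10 tested), Lama5, a laminin chain of the glomerular basement membrane, measured -0.35 (edgeR adjusted p = 0.247) and the collagen gene Col4a5 -0.40 (edgeR adjusted p = 0.32). In the surface and secreted group (10 tested), the protease gene Htra1 measured -0.26 (edgeR adjusted p = 0.239) and Bmp7, a growth factor, -0.24 (edgeR adjusted p = 0.282).

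**Figure D4:**
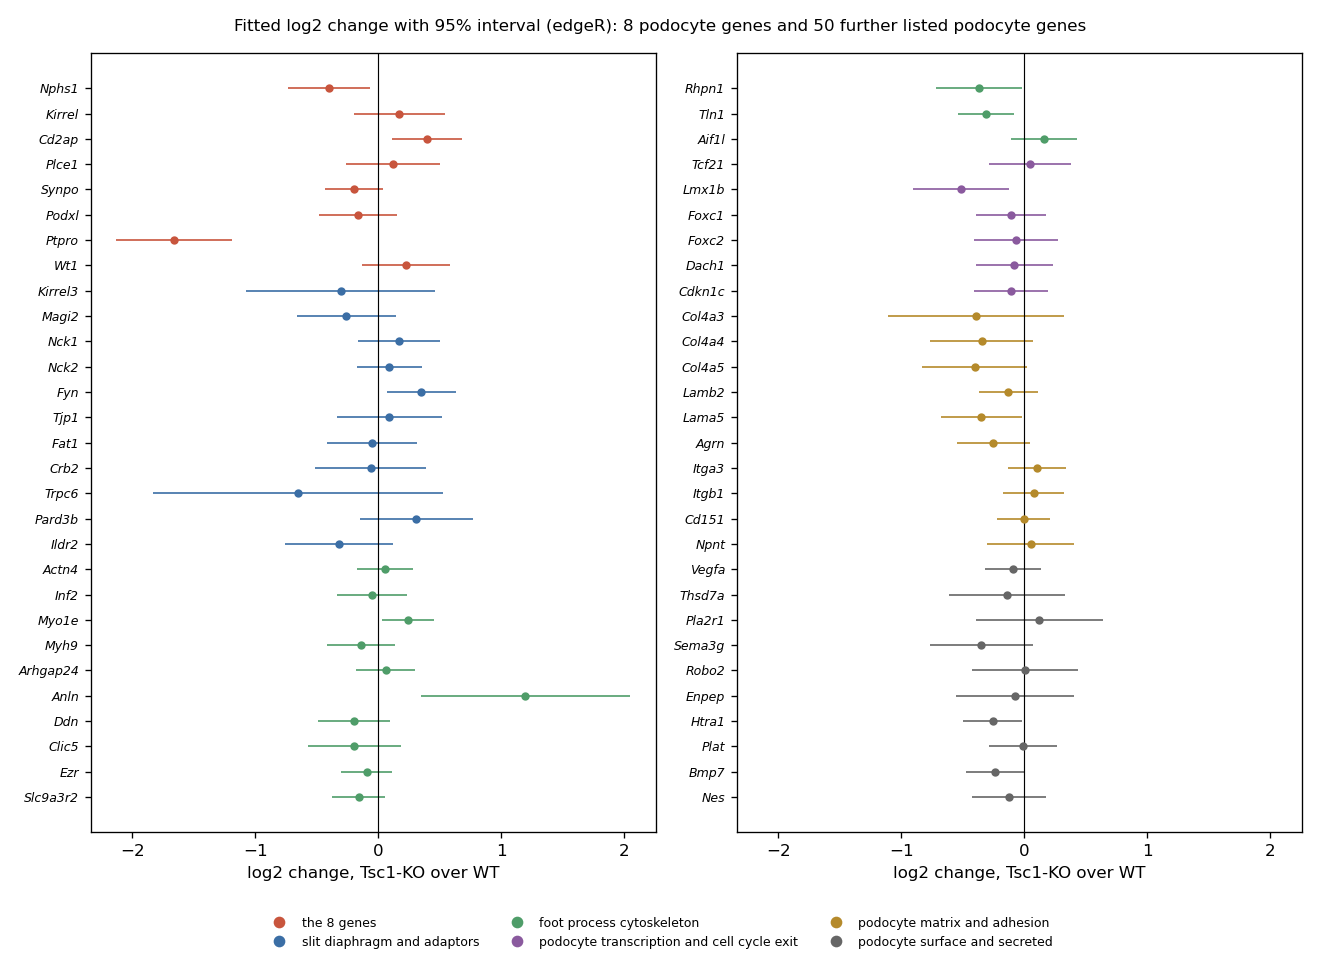
Fitted log2 change of Tsc1-KO over WT (horizontal axis, edgeR) with its 95% interval for the 8 genes (red) and 50 of the 52 further podocyte genes, coloured by group. Ptpro, at -1.66 with an interval of -2.13 to -1.19, is the lowest point, and the point farthest above 0 is Anln at 1.20.

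Of 3 other tested phosphatases of the R3 class, to which PTPRO belongs, 1 was higher and 0 lower by edgeR, beside 3.5% and 1.16% of all tested genes. Ptprh measured 0.145 to 0.298 CPM in WT and 0.723 to 2.004 CPM in Tsc1-KO, with 162 counts in all 8 libraries together, and rose (log2 change 2.22, SE 0.47, edgeR adjusted p = 0.0211). Ptprj measured 0.35 (edgeR adjusted p = 0.164) and Ptprb, the endothelial phosphatase, 0.17 (edgeR adjusted p = 0.722) on the log2 scale. Ptprq did not pass the filter on low counts.

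Genes listed for the other glomerular cells gave the following. Whole-kidney RNA does not show whether their levels came from the glomerulus or from other parts of the kidney. Of 7 genes listed for glomerular endothelium, 0 passed by edgeR and 0 had an unadjusted p under 0.05, beside 4.67% and 17.6% of all tested genes. Their summed level was 448 to 490 CPM in WT and 396 to 546 CPM in Tsc1-KO. Of 6 genes of mesangium and pericytes, Ren1 fell: this gene for renin, the protease made by juxtaglomerular cells, measured 227, 280, 187 and 274 CPM in WT 1 to 4 and 97.1, 105, 122 and 150 CPM in Tsc1-KO 5 to 8 (log2 change -1.03, SE 0.17, edgeR adjusted p = 0.00518). The groups did not overlap. Over all tested genes, 1.16% were lower and the groups did not overlap in 11.5%. Acta2, the smooth muscle actin gene, had a log2 change of 0.52 (edgeR adjusted p = 0.156) and Pdgfra, a growth factor receptor, one of 0.22 (edgeR adjusted p = 0.513). Of 4 parietal epithelium genes none was called by edgeR, beside 4.67% of all tested genes. The nearest to the threshold had opposite signs, Ncam1 at -0.54 (edgeR adjusted p = 0.0781) and Cldn1, a tight junction gene, at 0.996 (edgeR adjusted p = 0.243).

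The tested genes around Ptpro gave a mixed picture. Of 14 within 1 Mb, 3 were called (21.4%, beside 4.67% of all tested genes): Plbd1 (log2 change 0.997, edgeR adjusted p = 0.00243) and BC049715 (1.26, edgeR adjusted p = 0.0324) rose, and H2afj, a histone H2A variant, fell (-1.22, edgeR adjusted p = 0.0121). These 3 lay 590, 412 and 442 kb from Ptpro on the side of its start, and within 5 Mb 6 of 58 were called. The genotypes did not overlap in CPM for these 3, as in 11.5% of all tested genes. Art4 (log2 change -0.90, edgeR adjusted p = 0.0535) and Dera (-0.42, edgeR adjusted p = 0.0703) did not overlap either and were not called. The genotypes overlapped for the remaining genes within 1 Mb. The nearest tested gene on that side, Rerg (82 kb), had a log2 change of 0.09 (edgeR adjusted p = 0.879), and on the other side Eps8 (14 kb), an actin regulator, one of 0.22 (edgeR adjusted p = 0.351).

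**Figure D5:**
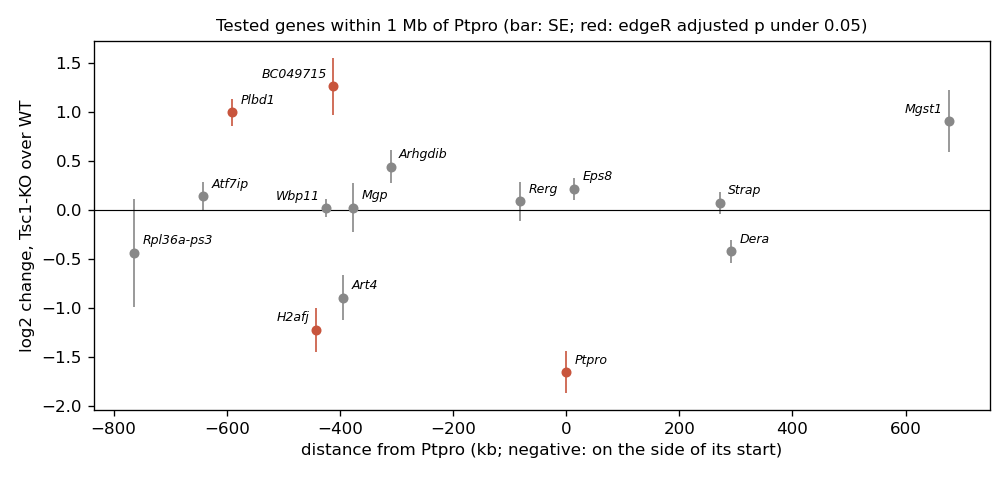
Log2 change of Tsc1-KO over WT (vertical axis, bars are SE) of the tested genes within 1 Mb against their distance from Ptpro in kb (horizontal axis), with genes past the threshold in red. The nearest genes on each side, Rerg and Eps8, are at 0.09 and 0.22, and Ptpro is at -1.66.

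Genes that overlap the 8 in the annotation held few counts. Inside Ptpro, Gm44258 on the same strand had 6 counts over the WT libraries and 0 over the Tsc1-KO libraries. Inside Nphs1, the antisense gene Nphs1os had 31 and 16 counts and the pseudogene Rps12-ps4 had 61 and 77. Gm37855 in Kirrel had 48 and 48, and Gm28991 in Plce1 had 1 and 5. Whether counting used strand is not given in the sources used here.

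The 5 protein-coding genes whose log2 CPM followed Ptpro most closely over the 8 libraries, of 14712 compared, were Fbxw15 (Pearson's r = 0.985), Hsd3b3 (0.983), Tmem150c (0.978), Ebf4 (0.976) and Klhl42 (0.972). Of these, Hsd3b3, Ebf4 and Klhl42 were themselves lower by edgeR, beside 1.16% of all tested genes. None of the other 7 podocyte genes stood among them. A ranking over both genotypes favors genes that changed as Ptpro did, so both statements follow in part from the ranking. For Nphs1, Rab42 (0.976), Aldh6a1 (0.972), Neu2 (0.965) and Myo7b (0.962) were among the closest, and none of these was called. These r span both genotypes and share library scaling, and are a description with no test.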

How the data were processed

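Total kidney RNA of 8 libraries was poly(A)-selected and sequenced on an Illumina system, per the labels. HISAT2 2.0.4 and HTSeq 0.9.1 are the tools named in the submitters' processing notes. The sources used here do not give the genome build or the annotation. Of 30572 identifiers shared with a GRCm38 annotation, 29777 had the same position, all 8 genes included. The deposited table holds a raw read count per gene and library, made by the authors with HTSeq, and the authors' FPKM. The authors' own fold changes and p-values in it were not used. P-values are two-sided.

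Counts were tested with edgeR 4.0.16 (filterByExpr with a minimum count of 10, TMM, quasi-likelihood with robust dispersion) in R 4.3.3, with genotype as the term and Benjamini-Hochberg adjustment over 18048 genes. The SE is that of the fitted log2 change. Alternatives were DESeq2 1.42.0, RLE size factors, no filter, limma 3.58.1 on log2(FPKM + 0.1) and log2(FPKM + 1) for genes with a mean FPKM of at least 0.1, Y-linked reads as a term, fits within libraries with or without them, and leaving out each library. No pair of libraries was a copy (smallest chi-square per degree of freedom 24.5).

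The genes and lists were chosen with earlier results of these data known. Named were the 8 genes, Tsc1, from each list the called genes and up to 2 others with the smallest adjusted p, the genes most like Ptpro and Nphs1, those near Ptpro that were called or nearest, and overlapping genes. Some genes that this names are not reported here. Rhpn1, Sema3g, Art4 and Dera were chosen after their values were seen. Figures were drawn with matplotlib 3.10.9.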

Additional observations from a re-analysis of the deposited data

Results flagged for a closer look

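In Tsc1-KO 6 the level of Podxl was 187 CPM, far from the other 3 Tsc1-KO libraries, of which the nearest was at 281 CPM. In Tsc1-KO 8 the log2 ratio of Ptpro to Nphs1 was -1.71, apart from the other 3, of which the nearest was at -2.19, and still below every WT library. Of 18 groups of 4 libraries examined for such a gap, these 2 had one, and chance gives about 1 in 20.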

How the results depend on the processing

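Direction held for Ptpro in every alternative run, from -1.97 (libraries without Y-linked reads) to -1.11 (limma on log2(FPKM + 1), which shrinks low genes), and it was called in all but the fit within libraries with Y-linked reads (-1.41, edgeR adjusted p = 0.105), where 0 of the 8 genes were lower and only 35 genes were higher and 23 lower among all genes. That fit has 2 libraries a group. Leaving out 1 library at a time gave -1.86 to -1.49 for Ptpro, with 1 of the 8 genes lower each time (1 to 1), and a Ptpro to Nphs1 log2 ratio difference of -1.40 to -1.23. With the sum of the 7 other genes as the reference that difference was -1.66. Signs turned for genes that were not called: Plce1 ranged from -0.0024 without WT 1 to 0.19 without Tsc1-KO 6, and Podxl came to 0.0066 within libraries with Y-linked reads.

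Over all genes, 632 were higher and 210 lower. DESeq2 gave 1003 and 500, limma on log2(FPKM + 0.1) 311 and 125, limma on log2(FPKM + 1) 266 and 115, and the libraries without Y-linked reads 248 and 110. With Y-linked reads as a term 779 were higher and 317 lower. When single libraries were dropped, the higher genes numbered from 321, with WT 3 absent, up to 833, with Tsc1-KO 7 absent. The lower genes numbered from 107, with WT 1 absent, up to 373, again with Tsc1-KO 7 absent. Of the other podocyte genes, 0 of 52 were called by the main edgeR fit and 2 of 53 by DESeq2. With Y-linked reads as a term 1 of 52 was called, and within the libraries without them 1 of 51. When 1 library was left out, 0 to 2 were called. The causes were not tested.

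No paired analysis was possible because the labels give WT libraries the numbers 1 to 4 and Tsc1-KO libraries 5 to 8, so no number is shared. Depth limits Ptprh, at 162 counts in all, and Kirrel2, at 68. Intervals cover the spread between 4 libraries a group.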

Other observations

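Within 1 Mb, 3 of 10 tested genes around Cd2ap were called by edgeR, 1 of 69 around Nphs1, 2 of 30 around Kirrel, 1 of 11 around Plce1, 0 of 25 around Synpo, 1 of 12 around Podxl and 1 of 16 around Wt1. Within 5 Mb, a distance chosen after seeing the data, 11.8% were called around Plce1, 10.3% around Ptpro, 10.2% around Wt1, 7.78% around Cd2ap, 5.16% around Kirrel, 2.99% around Podxl, 1.47% around Nphs1 and 0% around Synpo, beside 4.67% of all tested genes.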
